A study of Mus musculus with 28 samples.

Results

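MicroRNA miR-124 is abundant in neurons. Like other microRNAs, it guides Argonaute proteins to messenger RNAs whose 3′ untranslated region (3′ UTR) pairs with bases 2 to 8 of the microRNA, its seed, and lowers their stability or translation. The genes described here are 32 that the literature reports as direct miR-124 targets. All 32 were found by symbol among the 41549 genes of the count tables. They include the small phosphatases Ctdsp1, Ctdsp2 and Ctdspl, which work with the repressor REST to keep neuronal genes silent in other cells. In neurons miR-124 is known to hold these phosphatases and many genes of glia and precursors at a low level. The others are transcription and chromatin factors, adhesion and matrix proteins, cytoskeletal regulators such as Rac1 and Cdc42, and a few transport, metabolic and cell cycle genes.

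The libraries are nuclear RNA from the motor cortex of 7 mice, whose strain, sex, age and genotype are not stated in the labels. Each animal received a pair of Cas9 vectors, AAV-Cas9-miR-124-empty in the left hemisphere and AAV-Cas9-miR-124-g4 in the right one, so the vector and the hemisphere cannot be told apart. All 4 groups thus come from injected tissue, and there is no uninjected group; the labels state neither the promoter of the vectors nor the sequence of g4. Nuclei were fixed, stained for the HA tag of Cas9 and sorted into HA-positive and HA-negative nuclei, which gave 4 groups of 7 libraries: the HA-positive and the HA-negative nuclei of each vector. Where 4 values follow each other below, they stand in the order empty HA-positive, g4 HA-positive, then empty and g4 HA-negative.

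Library totals ranged from 248612 to 902944 counts and detected genes from 8687 to 13668. The HA-positive libraries of animals 17, 21 and 22 with the empty vector and of animal 18 with g4 had fewer than 10000 detected genes. In animal 19, the HA-positive library of the g4 side held 591 counts of Xist beside 44 counts of Y-linked genes, although the other libraries of that animal had no Xist, and its summed level of 10 oligodendrocyte markers was 1357 CPM (counts scaled to the size of the library) against 95.03 to 199 in the other g4 HA-positive libraries. Where a value moved with it by over 1.5 times or gained or lost a call, the value without it is given too. The summed level of 12 inhibitory neuron markers was 1882 to 4482 CPM in HA-positive and 895 to 1365 CPM in HA-negative libraries. The corresponding sum of 8 markers of striatal projection neurons, which the label motor cortex does not name, was 153 to 518 CPM in HA-positive and 247 to 1857 CPM in HA-negative libraries. In sorted bulk nuclei, a difference between groups in the kinds of nuclei and one in the RNA per nucleus cannot be told apart.

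The letters that link these genes to miR-124 are matches to its seed. These forms were searched on the sense strand of each gene's longest annotated 3′ UTR (GENCODE M21, GRCm38): GTGCCTT (7mer-m8), TGCCTTA (7mer-A1), and GTGCCTTA (8mer), which holds both and was then counted only as an 8mer. The following 30-base windows end at the match, which stands in capitals. They come from the REST phosphatases, which carry the best-known link to miR-124, and from 6 other members whose values are described by comparison below.
Ctdsp1, chr1:74395741-74395770, plus strand, 7mer-m8: tgagcccttgggcccctgtgtcaGTGCCTT
Ctdsp2, chr10:126996513-126996542, plus strand, 7mer-m8: ccaacaggggactctgctacactGTGCCTT
Ctdspl, chr9:119041049-119041078, plus strand, 7mer-m8: gaatctctttcctacaggatgaaGTGCCTT
Itgb1, chr8:128732298-128732327, plus strand, 7mer-m8: tccttgtcagctgaggtcacagtGTGCCTT
Itgb1, chr8:128733105-128733134, plus strand, 7mer-m8: aactagtcacaatcttgttttaaGTGCCTT
Creb1, chr1:64597752-64597781, plus strand, 7mer-A1: caaggtttgttgagctccatgatTGCCTTA
Cd164, chr10:41529479-41529508, plus strand, 8mer: accgtattaagaaatcagaacaGTGCCTTA
Cd164, chr10:41530368-41530397, plus strand, 8mer: tacatatatctaatgttttcaaGTGCCTTA
Lamc1, chr1:153221413-153221442, minus strand, 7mer-m8: acaggggaccctgtgaggcctcgGTGCCTT
Tln1, chr4:43531773-43531802, minus strand, 7mer-m8: cgtgtcctctccctgactcccaaGTGCCTT
Rhog, chr7:102239586-102239615, minus strand, 8mer: ggcgccttgtctgcccccagctGTGCCTTA

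A match of any form was present in 28 of the 32 genes (87.5%), against 27.7% of 6963 protein-coding genes tested in any comparison and 25.9% of the 2337 of these with a 3′ UTR within 1.5 times the members' median length of 1715.5 bases. An 8mer was present in 9 of 32 (28.1%), against 3.76% and 3.00% of the same sets: Snai2, Stat3, Ahr, Cd164, Rhog, Rock1, Iqgap1, Vamp3 and Slc16a1. Reports of targets often start from such matches, so these shares are no independent evidence. The 3′ UTR of Ctdsp1 held 5 matches, all 7mer-m8, and that of Cdk6 held 4, while Cd164 was the member with 2 8mers. No match was found in Hes1, Rac1, Cdc42 and Nfatc1; another annotated 3′ UTR of Nfatc1 had one. This says only that the letters are not in the searched window.

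A mean of at least 5 CPM in any group was reached by 26 of the 32 genes. The count was 19 in empty HA-positive, 21 in g4 HA-positive and 23 in each HA-negative group, and 16 genes reached it in all 4 groups. The 6 genes below it had highest group means of 0.873 CPM (Snai2), 1.38 (Cebpa), 3.42 (Ctdsp1), 4.44 (Jag1), 4.76 (Nfatc1) and 4.78 (Acaa2). Just above it were Efnb1 at 5.11, Cdk6 at 6.19 and Dlx2 at 6.52 CPM. Means of scarce genes could rest on 1 library: the 4.78 CPM of Acaa2 in empty HA-positive libraries was 1.49 without animal 21, and the 6.52 of Dlx2 there was 2.68 without animal 22. With each library left out in turn, 25 to 28 genes reached 5 CPM. A count in every one of the 28 libraries was found for 9 genes. Enough counts for the test were present for 14 genes in at least 1 of the 5 comparisons and for 10 in all of them, and 18 were tested in none. Of the latter, 12 had reached 5 CPM: Sox9, Hes1, Dlx2, Ahr, Ezh2, Plod3, Efnb1, Rhog, Vamp3, Slc16a1, Zfp36l1 and Cdk6.

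The REST phosphatases lay at low to middle levels. Ctdsp1 (chromosome 1) had 0 counts in the 2959946 counts of the empty HA-positive group, which allows up to 1.01 CPM over the group by counting error. It had 3 counts in 2 of the g4 HA-positive libraries, or 1 count without that of animal 19. There were 13 counts in 6 of the empty HA-negative libraries (lowest 0, median 3.67 and highest 7.90 CPM) and 8 counts in the g4 HA-negative group (0, 0 and 7.53 CPM). The groups overlapped between vectors, and Ctdsp1 had too few counts for the test in every comparison. Ctdsp2 (chromosome 10) had a lowest, median and highest level of 3.47, 24.4 and 68.0 CPM in empty HA-positive libraries, 13.7, 34.5 and 46.7 in g4 HA-positive, 31.6, 37.8 and 53.0 in empty HA-negative and 19.5, 36.5 and 48.8 in g4 HA-negative ones. All 4 groups of Ctdsp2 overlapped, with the widest spread in the empty HA-positive one. Ctdspl (chromosome 9) had 2.84, 8.17 and 23.6 CPM in empty HA-positive, 11.7, 13.7 and 25.0 in g4 HA-positive, 6.94, 19.6 and 29.3 in empty HA-negative and 9.87, 14.9 and 22.7 in g4 HA-negative libraries, and its groups overlapped too. Each of these phosphatase genes houses a miR-26 hairpin on the same strand (Mir26b, Mir26a-2 and Mir26a-1, in that order), and all of these hairpins were at 0 counts in every group.

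Among the 11 transcription and chromatin genes, the glucocorticoid receptor Nr3c1 (chromosome 18) was the most abundant, with a mean of 94.2 ± 28.3 CPM in empty HA-positive, 89.5 ± 28.7 in g4 HA-positive, 105 ± 34 in empty HA-negative and 136 ± 21.1 in g4 HA-negative libraries (SD, n = 7). Creb1, the transcription factor activated by cyclic AMP and calcium, averaged 34.2, 64.6, 58.8 and 64.4 CPM in the same order. Stat3, the effector of cytokine signals, averaged 29.0, 32.5, 24.3 and 20.9 CPM. The aryl hydrocarbon receptor Ahr had 20.5 and 16.1 CPM in the HA-positive groups and 3.76 and 7.99 in the HA-negative ones. Hes1, the Notch-driven repressor, had 12.7 and 9.22 against 3.75 and 2.55 CPM; the 12.7 was 7.62 without animal 21, which held 16 of 32 counts, and the 3.75 was 2.45 without animal 17. Sox9, a factor of astrocytes and neural precursors, was at 1.92 CPM in empty HA-positive libraries and 7.91, 7.35 and 6.65 in the other groups. The 1.92 rested on 5 counts in all, and the 7.91 of g4 HA-positive libraries was 4.70 without animal 23. Ezh2, the methyltransferase of Polycomb complex PRC2, averaged 3.49, 2.52, 7.89 and 4.14 CPM. Without 1 library each, of animals 22 and 19, its HA-positive means were 0.788 and 1.19. The homeobox gene Dlx2, known from inhibitory neurons, ran from 1.53 to 6.52 CPM. Of the haematopoietic and mesenchymal factors Cebpa, Nfatc1 and Snai2, Cebpa and Snai2 were near the detection limit in every group. Nfatc1 averaged 4.62 CPM in empty HA-negative and 4.76 CPM in g4 HA-negative libraries. Nfatc1 had 0 counts in the empty HA-positive group, and all 3 counts of Snai2 came from 1 empty HA-positive library.

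Among the 7 adhesion, matrix and ligand genes, Cd164, a sialomucin, averaged 49.8 ± 15.7, 61.6 ± 23.0, 27.1 ± 8.96 and 54.2 ± 11.6 CPM. The integrin subunit Itgb1 had 21.0 ± 13.3, 56.9 ± 14.7, 35.6 ± 16.2 and 34.5 ± 15.4 CPM, more than Cd164 in the empty HA-negative group and less in the others. Talin, encoded by Tln1, which couples integrins to actin, had means of 14.2, 14.3, 24.4 and 28.5 CPM, and the laminin chain Lamc1 of 6.32, 17.1, 22.4 and 17.0. The collagen-modifying enzyme Plod3 stayed between 7.06 and 11.4 CPM. The Notch ligand Jag1 and the ephrin ligand Efnb1 averaged at most 4.44 and 5.11 CPM, and 14 of the 19 counts of Efnb1 in the empty HA-negative group came from animal 18.

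Of the cytoskeletal regulators, Rac1 (143, 160, 155 and 157 CPM) and Cdc42 (140, 132, 126 and 128 CPM), which shape the actin cytoskeleton, were the only members above 100 CPM in all 4 groups. Per kilobase of exon, Cdc42 had the highest mean of the 32 genes in every group at 42.6 to 47.3 CPM, before Rac1 at 31.8 to 35.6. Below them, Nr3c1 at 11.6 to 17.7, Cd164 at 6.09 to 13.8 and Itgb1 at 5.14 to 13.95 changed places between groups. The kinase Rock1, which promotes actomyosin contraction, averaged 21.6, 35.8, 43.7 and 51.4 CPM, the scaffold Iqgap1 8.93, 12.8, 21.3 and 21.4 CPM and the phosphatase Ptpn12 23.1 to 32.4 CPM. Rhog, a GTPase upstream of Rac1, had 0.526 and 1.53 CPM in the HA-positive groups and 9.82 and 9.24 in the HA-negative ones, and the 1.53 was 0.915 without animal 19.

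The remaining 5 genes were all tested in no comparison. The monocarboxylate transporter Slc16a1 averaged 12.4, 8.63, 18.3 and 15.2 CPM, and its HA-positive means were 8.17 without the empty library of animal 22 and 5.54 without the g4 library of animal 23. Vamp3, a vesicle fusion protein that lies within Camta1 on the same strand, had 2.48, 14.2, 7.16 and 9.25 CPM, with 11.8 in g4 HA-positive libraries without the one of animal 19 and 1.05 in empty ones without that of animal 23. The RNA-decay factor Zfp36l1 had 1.56 and 1.54 CPM in the HA-positive groups against 5.03 and 8.52 in the HA-negative ones. Animal 21 held all 4 counts behind the 1.56 and 24 of 40 behind the 8.52, which was 4.52 without it. The cell cycle kinase Cdk6 averaged 2.09 to 6.19 CPM and the mitochondrial thiolase Acaa2 1.31 to 4.78, where its g4 HA-positive mean of 4.24 was 1.69 without animal 17.

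The comparison of g4 with empty HA-positive nuclei asked how the targets differed between vectors among nuclei with Cas9, in a study of miR-124 knockdown. Of the 10 targets tested, 0 passed an adjusted p of 0.05 (edgeR quasi-likelihood, Benjamini-Hochberg adjusted over 5011 genes), where 0.0599% of all genes passed. Itgb1, Creb1 and Rock1 had the largest log2 fold changes of the 10, all toward g4. At an unadjusted p under 0.05 there were 2 targets, against 6.69% of all genes. A log2 fold change above 0 was found for 8 of 10, against 49.2% of all genes, and the median of the 10 was 0.19 against -0.01. Of these 8, Stat3, Rac1 and Ptpn12 also took values below 0 in alternative fits (lowest -0.06, -0.003 and -0.15). Nr3c1, below 0 here, took values above 0 there (highest 0.09). Without the libraries under 10000 genes the median was 0.40 over the same 10 targets and 0.33 over the 11 then tested. DESeq2 also called 0 of the targets, with no adjusted p for 5 of the 10, and 0.22% of all genes.

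Itgb1 had a lowest, median and highest level of 0, 17.3 and 36.8 CPM with the empty vector and 37.0, 59.0 and 82.5 CPM with g4. It was higher with g4 in 7 of 7 animals, and the highest empty library and the lowest g4 library, both of animal 23, nearly touched. Groups without overlap were found for this target alone among the 10, and for 0.22% of all genes. Its log2 fold change was 1.44 ± 0.44 (SE; unadjusted edgeR p 0.00284, adjusted p 0.457), and the adjusted p ran from 0.157 to 0.842 over the alternatives. Creb1 had 24.3, 33.5 and 46.9 CPM with the empty vector and 38.5, 61.7 and 120 CPM with g4. These levels overlapped, since the lowest g4 library lay below the highest empty ones, and Creb1 was higher in 6 of 7 animals. Its log2 fold change was 0.87 ± 0.32 (unadjusted edgeR p 0.00971, adjusted p 0.676, 0.327 to 0.855 over the alternatives). With that animal 19 library of the g4 side left out, the values were 1.51 for Itgb1 and 0.93 for Creb1.

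The other targets tested did not reach an unadjusted p of 0.05. Rock1 went from 0, 22.1 and 54.4 CPM to 13.7, 42.9 and 49.0 CPM, with overlapping groups and a log2 fold change of 0.70 ± 0.49. Without the libraries under 10000 genes it was 0.84 (unadjusted edgeR p 0.0480, adjusted p 0.750). Ctdsp2 differed by 0.21 ± 0.45, with a 95% interval from -0.68 to 1.10, which covers a doubling. For Rac1 the interval was narrower, from -0.23 to 0.51 around 0.14, and for Cdc42 it ran from -0.45 to 0.27 around -0.09. Cd164 differed by 0.30 ± 0.32, Stat3 by 0.17 ± 0.40, Ptpn12 by 0.05 ± 0.44 and Nr3c1 by -0.06 ± 0.25. The 8mer genes among the 10 (Cd164, Stat3 and Rock1) thus had 0.17 to 0.70, the genes with 7mers -0.06 to 1.44, and Rac1 and Cdc42, with no match, 0.14 and -0.09.

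Measures of the nuclei moved with the same contrast. The g4 HA-positive libraries had 11885 ± 1380 detected genes and the empty ones 10376 ± 1372 (SD, n = 7). The 12 inhibitory neuron markers summed to 2942 ± 626 CPM in g4 and 3582 ± 456 CPM in empty libraries, with 2 of 11 tested above 0, a median of -0.35 and 4 at an unadjusted p under 0.05 (0 called). The 12 excitatory neuron markers summed to 1621 ± 221 CPM in g4 and 1376 ± 318 CPM in empty libraries, with 7 of 9 above 0 and a median of 0.26 (0 called). The summed level of 10 astrocyte markers had a lowest, median and highest value of 609, 775 and 1376 CPM with the empty vector and 942, 1424 and 2625 CPM with g4, and all 5 of the 10 that were tested had a higher value with g4 (0 called). Of 10 microglia markers, 5 were at 0 in empty HA-positive libraries (Cx3cr1, P2ry12, C1qa, C1qc and Gpr34), and their sum was 6.95 to 44.2 CPM against 2.75 to 46.9 with g4 without animal 19 and 356 in that library. The summed level of 8 endothelial markers was 2.04 to 22.1 CPM with the empty vector and 5.06 to 20.6 with g4. Their part in the values of the targets was not tested. Among genes with too few counts for the test, Vamp3 was higher with g4 in 6 of 7 animals, at 2.51 on the log2 scale in the fit with no filter on low counts (adjusted p 0.322).

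The hairpin gene Mir124a-2 had 57 counts in 6 g4 HA-positive libraries and 0 in every other group. Mir124a-1 and Mir124a-3 were at 0 throughout. Mature miR-124 was not measured in these libraries.

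The same contrast in HA-negative nuclei served as the comparison for nuclei without detected Cas9. Of 13 targets tested, 0 were called, where edgeR called 0% of 6262 genes and DESeq2 0.016%. An unadjusted p under 0.05 was found for 1 of 13, against 3.77% of all genes. Values above 0 were found for 8 of 13, against 49.2% of all genes, and the median was 0.01 against 0.00. Cd164 had 13.2, 27.6 and 38.5 CPM with the empty vector and 39.0, 57.8 and 67.7 CPM with g4. The highest empty library, of animal 22, lay just under the lowest g4 library, of animal 18, and Cd164 was higher with g4 in 7 of 7 animals. Such a lack of overlap was seen for 1 of 13 targets and 0.0958% of all genes. The log2 fold change of Cd164 was 0.98 ± 0.27 (unadjusted edgeR p 0.000613, adjusted p 0.999, 0.358 to 1.00 over the alternatives, of which DESeq2 gave 0.414).

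Nr3c1 was higher with g4 in HA-negative nuclei of 7 of 7 animals as well, with 47.3, 108 and 148 CPM with the empty vector and 103, 136 and 169 CPM with g4. These levels overlapped, and the difference was 0.36 ± 0.18 (unadjusted edgeR p 0.0521). Ctdsp2 was lower with g4 in 6 of 7 animals at -0.26 ± 0.26. Itgb1 differed by -0.03 ± 0.32, Creb1 by 0.13 ± 0.22, Lamc1 by -0.38 ± 0.39 and Rac1 by 0.01 ± 0.14, the last with an interval from -0.27 to 0.30. The remaining 6 of the 13 ranged from -0.24 (Stat3) to 0.50 (Ptpn12).

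**Figure D1:**
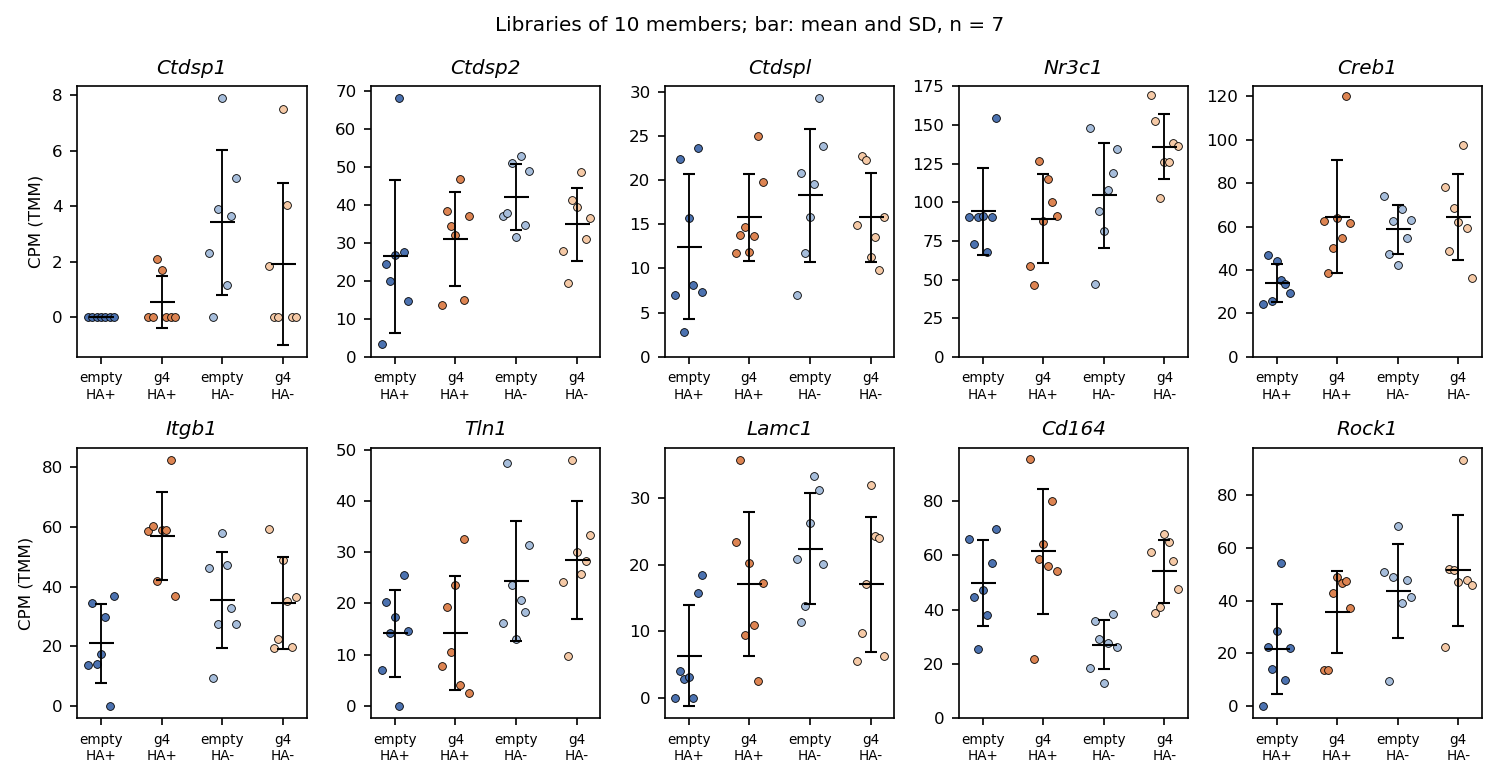
CPM of the 10 named targets in every library, in the 4 groups, with the group mean and SD; each point is 1 of 7 libraries. Itgb1 separates the HA-positive groups at 36.8 against 37.0 CPM and Cd164 the HA-negative groups at 38.5 against 39.0 CPM.

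Whether the effect of g4 differed between HA-positive and HA-negative nuclei was tested as 1 model of all 28 libraries. Of 14 targets, 0 were called (0% of 7197 genes were). At an unadjusted p under 0.05 there were 2 of 14, against 4.99% of all genes. The difference was above 0 for 9 of 14, against 53.2% of all genes, with a median of 0.45 against 0.03, and the median was 0.10 to 0.42 over the same 14 with each animal left out. It was lowest without animal 22, where the 15 targets then tested had a median of -0.01. For Itgb1 the effect in HA-positive nuclei exceeded that in HA-negative nuclei by 1.49 ± 0.55 (unadjusted edgeR p 0.00918, adjusted p 0.924). Lamc1 had 0, 3.15 and 18.4 CPM in empty HA-positive, 2.50, 17.3 and 35.7 in g4 HA-positive, 11.4, 20.8 and 33.4 in empty HA-negative and 5.58, 17.2 and 31.99 in g4 HA-negative libraries. The empty HA-positive group of Lamc1 was the low one, with overlap to all others, and the difference of effects was 1.77 ± 0.80 (unadjusted edgeR p 0.0313, adjusted p 0.971). The REST phosphatases differed by 0.48 ± 0.50 for Ctdsp2 and 0.51 ± 0.67 for Ctdspl. Cd164, higher with g4 in HA-negative nuclei, had a difference of -0.66 ± 0.41, so that its 2 effects were not shown to differ.

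HA-positive were then compared with HA-negative nuclei of the same vector, which share libraries with the comparisons above. With the empty vector, 0 of 10 targets were called, against 7.01% of 5538 genes by edgeR and 8.92% by DESeq2. The unadjusted p was under 0.05 for 3 of 10, against 19.2% of all genes, and a value above 0 was found for 4 of 10, against 50.9%, with a median of -0.14 against 0.01. Non-overlapping groups were found for 0 of 10, against 3.14%. Creb1 was lower in HA-positive nuclei in 6 of 7 animals, with 24.3, 33.5 and 46.9 CPM against 42.1, 62.7 and 74.0 CPM. Only the tails of the groups overlapped, and the log2 fold change was -0.75 ± 0.28 (adjusted edgeR p 0.115, 0.0533 to 0.272 over the alternatives). Cd164 was higher in 6 of 7 animals, with 25.5, 47.3 and 69.9 CPM against 13.2, 27.6 and 38.5 CPM, at 0.86 ± 0.34 (adjusted edgeR p 0.132). Rock1, with 0, 22.1 and 54.4 CPM against 9.46, 47.6 and 68.4 CPM, was lower in 5 of 7 animals at -0.97 ± 0.47 (adjusted edgeR p 0.249). Ctdsp2 was lower in 6 of 7 animals at -0.64 ± 0.39.

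With no filter on low counts, where all 32 genes entered, Rhog was called lower in empty HA-positive than in empty HA-negative nuclei at -4.02 on the log2 scale (adjusted edgeR p 0.0281), the 1 call among 32, where 3.72% of 17753 genes were called. It had a count in 1 empty HA-positive library and in all 7 empty HA-negative ones, and the fitted value of a gene so near 0 depends on the prior count. With g4 the value was -2.17 (adjusted p 0.157), where animal 19 held 5 of the 9 counts of Rhog in HA-positive nuclei. Several other scarce genes had the same sign in every or nearly every animal of the empty vector without a call in that fit. Nfatc1 was lower in 7 of 7 (adjusted p 0.0552), Ctdsp1 in 6 of 7 (0.0873) and Lamc1 in 7 of 7 (0.101), while Ahr was higher in 7 of 7 (2.23, adjusted p 0.0733). The markers of oligodendrocytes and microglia moved with this contrast: the summed oligodendrocyte markers were at 52.0 to 122 CPM in empty HA-positive and 1096 to 1834 CPM in empty HA-negative libraries, and the microglia markers at 6.95 to 44.2 and 271 to 621 CPM. The summed astrocyte markers overlapped, at 609 to 1376 and 1210 to 1538 CPM (means 913 and 1384). Their part in the values of Rhog, Nfatc1 and the other scarce genes was not tested.

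With g4, 0 of 11 targets were called, against 6.4% of 6264 genes by edgeR and 7.28% by DESeq2. The unadjusted p was under 0.05 for 3 of 11, against 17.4% of all genes, a value above 0 was found for 5 of 11, against 50.6%, and groups without overlap for 0 of 11, against 1.8%. The median was -0.02 against 0.01. Nr3c1 had 46.7, 91.3 and 127 CPM in HA-positive and 103, 136 and 169 CPM in HA-negative nuclei. It was lower in HA-positive nuclei in 6 of 7 animals, with overlap from the HA-positive libraries of animals 19 and 21. The log2 fold change was -0.57 ± 0.19 (adjusted edgeR p 0.0664). With the HA-positive library of animal 19 left out it was -0.69 with an adjusted p of 0.0208, and without both libraries of that animal -0.75 with 0.0154, so that Nr3c1 was called in both of these fits, which called 7.96% and 6.8% of all genes. The range over all its alternatives was 0.0154 to 0.280. Itgb1 was higher in HA-positive nuclei in 6 of 7 animals, with 37.0, 59.0 and 82.5 CPM against 19.5, 35.2 and 59.5 CPM, at 0.70 ± 0.29 (adjusted edgeR p 0.167). Tln1 had 2.47, 10.5 and 32.5 CPM against 9.74, 28.2 and 48.0 CPM, with wide overlap, and a value of -1.05 ± 0.44 (adjusted edgeR p 0.179).

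Other genes of the same pathways gave 0 calls between the vectors, in HA-positive and in HA-negative nuclei and for the difference of the effects. A list of REST and its corepressors had 6 of 11 genes tested in HA-positive nuclei, 2 of them higher and a median of -0.32, and Hdac2, a histone deacetylase, had the smallest p at -0.75 ± 0.35 (adjusted edgeR p 0.730). In integrin adhesion 6 of 18 were tested, 2 higher with a median of -0.21. The 8 Notch genes had too few counts in HA-positive nuclei. Of 8 further reported miR-124 targets 5 were tested, 4 higher with a median of 0.36, led by the glutamate receptor subunit Gria2 at 0.36 ± 0.13 (adjusted edgeR p 0.671).

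Between the sorted fractions some genes of these lists passed the test, all lower in HA-positive nuclei. With g4 these were the integrin subunits Itgb8 (-1.01 ± 0.26, adjusted edgeR p 0.0138) and Itgb5 (-1.85 ± 0.56, 0.0414) and the focal adhesion kinase Ptk2 (-0.65 ± 0.20, 0.0397). That made 3 of 7 integrin adhesion genes with g4, where 6.4% of all genes were called, and 0 of 6 with the empty vector, where 7.01% were. Not every gene tested with g4 was tested with the empty vector, so these counts do not rest on the same genes. With the empty vector Itgb8 had -0.93 ± 0.43 (adjusted edgeR p 0.217), and 2 of the 6 had an unadjusted p under 0.05. The difference of g4 effects is also the difference between the vectors in this contrast. It gave 0 calls among 9 integrin adhesion genes tested, with 4 above 0. Itgb5 had the smallest p, at 3.02 ± 1.04 (adjusted edgeR p 0.924). A value above 0 means that the HA-positive level, relative to HA-negative nuclei, was lower with the empty vector than with g4. The summed oligodendrocyte markers were at 95.03 to 1357 CPM in g4 HA-positive libraries, or at most 199 without that of animal 19. In g4 HA-negative libraries they were at 1365 to 2417 CPM. Their part in the values of the integrin adhesion genes was not tested. Among the further reported targets, the immediate early gene Egr1 passed with the empty vector at -0.70 ± 0.14 (adjusted edgeR p 0.00137) and had -0.42 ± 0.14 with g4 (0.0779). The REST corepressor and Notch lists had 0 calls between fractions.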

How the data were processed

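The authors deposited raw read counts per gene for HA-positive and for HA-negative nuclei, on GRCm38 per the submitters' processing notes; the aligner, counter, annotation and strand setting were not given in the sources used here, nor was whether molecular identifiers were counted. The starting material was RNA in picogram amounts, per the labels' protocols. Without a stated strand, reads of Tln1 and Creb3, Rac1 and Daglb, Stat3 and Stat5a, and Plod3 and Znhit1, whose exons overlap on opposite strands, cannot be told apart. The same holds for Ahr, Ctdspl, Iqgap1, Cdk6 and Cebpa, whose exons overlap those of noncoding genes on the opposite strand. Empty cells were read as 0. The 1 entry of 41550 that names no gene was dropped, and 41474 of the 41549 genes matched GENCODE M21 by Ensembl gene identifier. Groups and animal numbers (17 to 23) come from the sample titles; for animals 21 to 23 the column names carry 22 to 24, and the sample descriptions tie them to samples.

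Counts were tested with edgeR 4.0.16 (R 4.3.3): TMM factors, filterByExpr, glmQLFit and glmQLFTest on the libraries compared, 2-sided, with Benjamini-Hochberg adjustment over all genes tested and a threshold of 0.05. CPM use TMM factors over all 28 libraries. The 95% intervals use the normal approximation. Alternatives were the animal as a block, DESeq2 1.42.0, its size factors, no filter, counts without ribosomal RNA genes, and leaving out libraries or animals. The steps were tested on simulated data. Same-numbered libraries come from the same animals; the deviations of same-numbered libraries from their group means correlated by -0.10 to 0.13 (median 0.02, 28 pairs), and 9 correlated best with their own number. The intervals include the spread between libraries, while the limit given for a group with 0 counts covers counting error only. The members and gene lists were chosen with earlier results of these data known. Values in every group by library are given for the REST phosphatases and for members with an unadjusted p under 0.05 in any comparison, and other members by group means. Genes of the reported pathway and further target lists are named where called or, in some comparisons, with the smallest p. Cell type markers are given mainly as sums, and those called between the fractions are not named. Further lists held REST corepressors, integrin adhesion, Notch signalling, other reported targets and cell type markers; 1 further list is not reported here.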

Additional observations from a re-analysis of the deposited data

Results flagged for a closer look

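In groups of 7 libraries, Dixon's test (critical ratio 0.568) was applied to the levels of the named targets in 39 group and gene combinations and marked 4 single libraries, where chance marks about 1 in 20. Ctdsp2 had 68.05 CPM (25 counts) in the empty HA-positive library of animal 21, against 27.6 CPM in the next library. Nr3c1 had 154.6 CPM (42 counts) in the empty HA-positive library of animal 23, against 91.4 in the next. Creb1 had 120.0 CPM (48 counts) in the g4 HA-positive library of animal 22, against 64.1 in the next. Rock1 had 93.44 CPM (69 counts) in the g4 HA-negative library of animal 21, against 51.9 in the next.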

How the results depend on the processing

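Depth limits these results: 18 of the 32 targets had too few counts for any test. The number of targets with a mean of at least 5 CPM was 26; it was 30 at a threshold of 2 CPM, 19 at 10 CPM and 26 without TMM factors. For g4 against empty HA-positive nuclei, 3 genes were called in all; the count was 1 with the animal as a replicate block, 11 with DESeq2, 28 with no filter on low counts, 5 with the g4 HA-positive library of animal 19 left out, 0 without the libraries under 10000 genes (edgeR), and 1 to 4 with each animal left out. The targets' median of 0.19 was 0.40 over the same 10 targets, and 0.33 over the 11 then tested, without the libraries under 10000 genes. In HA-negative nuclei DESeq2 called 1 gene against 0. For the difference of effects 3 genes were called with no filter against 0, and the median of 0.45 was 0.10 to 0.42 with each animal left out, lowest without animal 22 (-0.01 over the 15 targets then tested). For HA-positive against HA-negative nuclei of the empty vector, 388 genes were called, 661 with no filter and 251 to 371 with each animal left out; 1 target (Rhog) was called with no filter, and the median of -0.14 was -0.24 to -0.11, lowest without animal 18; it was -0.51 over the 14 targets tested without the libraries under 10000 genes and -0.74 over all 32 with no filter, where the median of all genes was -0.18. With g4, 401 genes were called and 218 to 422 with each animal left out, or 507 with the g4 HA-positive library of animal 19 left out; 1 target (Nr3c1) was called without that library (-0.69) and without animal 19 (-0.75). The replicate block changed no other call of a target, and the cause of these shifts was not tested. The targets' median with g4 between fractions lay near 0 and took either sign, from -0.12 to 0.03 over the same 11 targets, with each animal left out. For the 11 target and comparison pairs with an unadjusted p under 0.05, 147 of 149 values under the alternatives kept their direction and side of the threshold, and 0 pairs changed sign. Of the 47 other tested pairs, 16 took both signs, all with a value of at most 0.43 in size: among them Nr3c1 in HA-positive nuclei (g4 against empty, -0.19 to 0.09) and Itgb1 in HA-negative nuclei (-0.13 to 0.07).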
